A study of Rattus norvegicus with 10 samples.

Results

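Mitosis, spindle and kinetochore genes were followed in 10 Affymetrix Rat Genome 230 2.0 arrays, each hybridised with RNA of 1 rat mammary tumor sample. The genes were 60 listed symbols, chosen by function with earlier results of these data known. Of these, 53 had a probe set (a group of short probes for 1 transcript) that the platform annotation assigns to that symbol alone. All 53 passed the filter on low signal, and they were 53 of 12255 tested genes. Each gene was represented by its probe set with the brightest mean over all arrays. The other 7 were not measured as single genes. Nek2, Ndc80, Kif4a, Tpx2 and Ncapg had no probe set under their symbol, and Ckap2 and Anln appeared only on probe sets that list several symbols.

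A final and a basal sample were taken of 5 tumors with the codes 09I1, 11D2, 12I1, 29I1 and 43D1, so that each group had 5 arrays paired by tumor. All tumors came from female Sprague-Dawley rats given DMBA by mouth, once, at 100 mg/kg. DMBA is a carcinogen that induces mammary tumors. The final samples were collected at 19 weeks of age, after 6 weekly intravenous doses of 1 mg/kg adriamycin (doxorubicin, a topoisomerase II poison). The basal samples were untreated trucut needle biopsies taken at 12 weeks, when the tumor measured 2 cm3. The sample labels describe the final sample as the whole tumor, whereas the design text describes it as a trucut sample. No late tumor without adriamycin was included, so treatment, age and kind of sample cannot be told apart. The sample titles end in codes that form a separate run of numbers in each group, and what these mark is not given in the sources used here. Whether the tumors came from separate rats is not given in the sources used here, so the p-values describe variation among tumors that may share an animal.

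A dividing cell enters mitosis when cyclin-dependent kinase 1, bound to a B-type cyclin, is switched on. Kinesin motors and microtubule-binding proteins then build the spindle, kinetochores attach chromosomes to it, and the spindle checkpoint holds the anaphase-promoting complex inactive until all are attached. Transcripts of these genes are made mainly in the later part of the cell cycle, which is why their summed level is widely read as a measure of how many cells of a tumor are cycling. In RNA of a whole tissue, fewer dividing cells and less RNA per cell cannot be told apart.

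The final array of 09I1 stood apart from the other 9. The beta-actin control read 2.61 log2 units higher at its 3′ end than at its 5′ end, where the others had 0.723 to 0.963. The same difference for GAPDH was 0.930, where the others had 0.0941 to 0.238. Across probe sets its median correlation with the other arrays was 0.896, against 0.958 to 0.973. The SD of the final minus basal change over the tested genes was 0.822 in 09I1, more than in any of the others (0.484 to 0.586). The mean change, the spread between tumors and the order of the arrays are therefore also given without the 09I1 pair. The luminal epithelial markers (12 genes such as Krt8 and Epcam) had mean levels of 10.54 to 11.13 log2 units on the final arrays and 10.78 to 11.10 on the basal ones, so markers of the labelled mammary epithelium were present on all arrays.

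The question of the paired design was which transcripts differed between the adriamycin-treated final sample and the basal sample of a tumor. For the mitosis genes, the answer differed between tumors in sign. In 29I1 and 43D1 all 53 genes were lower in the final sample, with median changes of -1.98 log2 units in 29I1 and -2.04 in 43D1. In 09I1 all 53 were higher, by a median of 1.48. In 11D2 and 12I1 the genes stayed close to their basal level, with medians of -0.14 and 0.23. Over all tested genes the median was 0.15 for 09I1, -0.015 for 11D2, 0.050 for 12I1, -0.038 for 29I1 and -0.0090 for 43D1. Within a tumor there is 1 array of each kind, so these are values with no test.

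**Figure D1:**
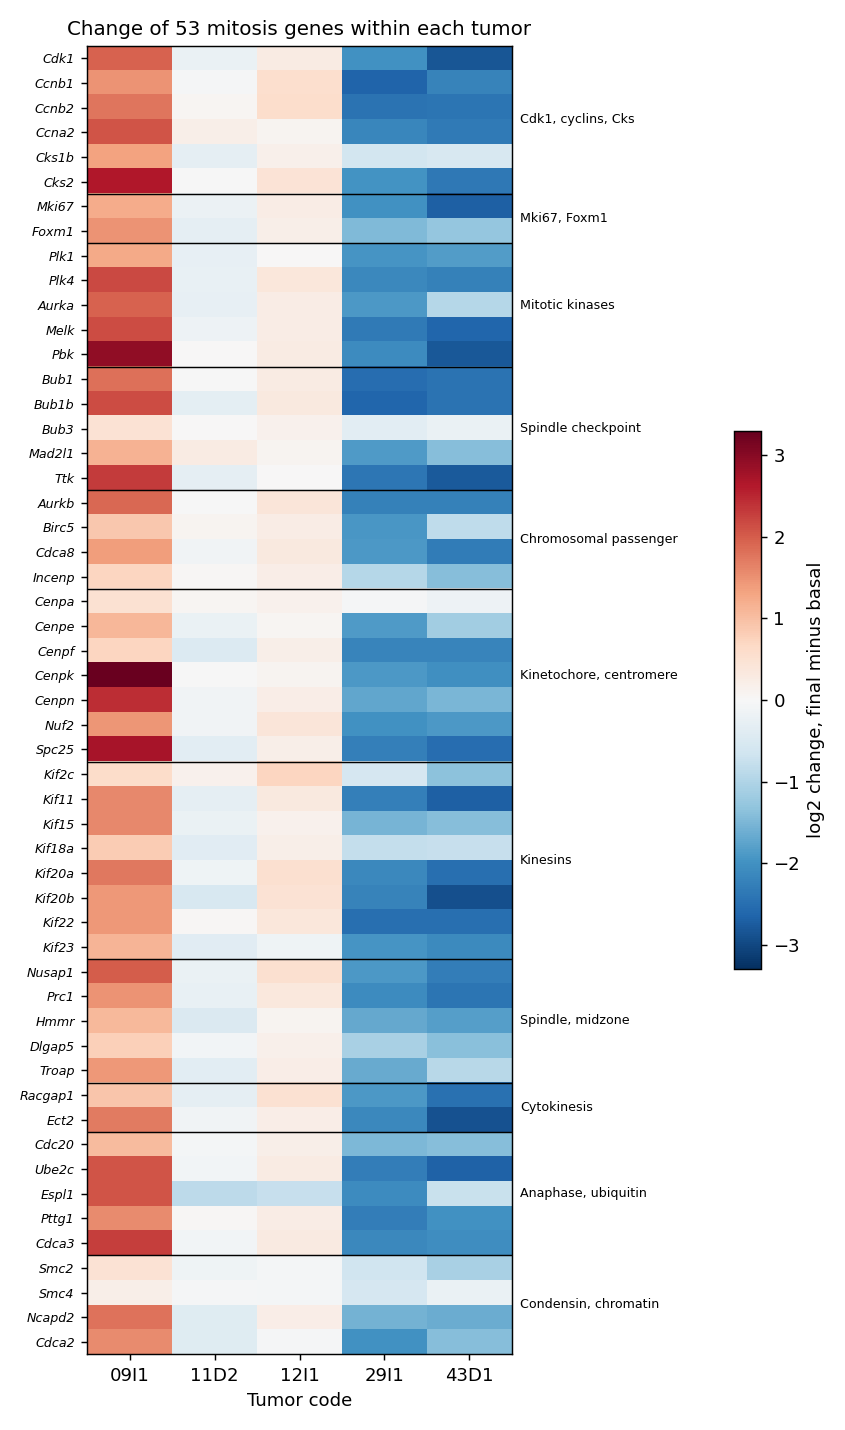
Final minus basal log2 change of each of the 53 measured mitosis genes (rows, grouped by role) in each of the 5 tumors (columns); red is higher and blue lower in the final sample. The 09I1 column is red throughout, the 29I1 and 43D1 columns are blue throughout, and 11D2 and 12I1 are pale.

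A change of 1 log2 unit, a doubling or halving, was reached by most of the genes in 3 of the tumors. In 29I1, 45 of the 53 (84.9%) were lower by that much, against 5.83% of all tested genes. In 43D1 it was 44 of the 53 (83.0%), against 2.93% of all genes. In 09I1, 42 of the 53 (79.2%) were higher by 1 unit or more, against 12.2% of all genes. None of the 53 passed 1 unit in either direction in 11D2, where 1.19% of all genes were lower and 3.48% higher by that much. The same held in 12I1, where 2.23% of all genes were lower and 1.96% higher. In the opposite directions too no mitosis gene passed 1 unit, while 8.5% of all genes were lower in 09I1, 1.6% higher in 29I1 and 3.75% higher in 43D1.

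**Figure D2:**
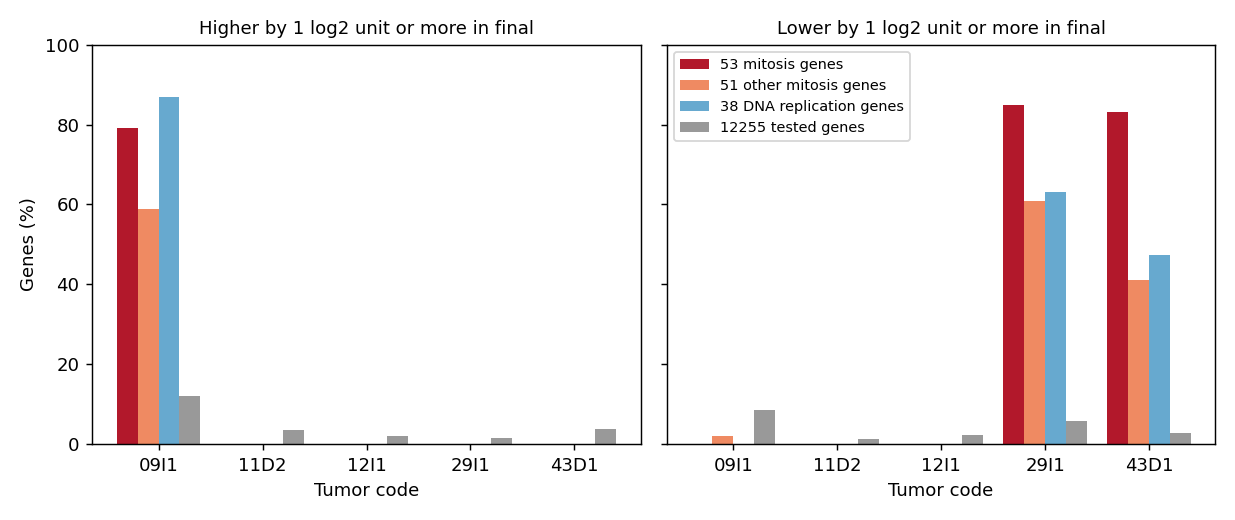
Share of genes, in percent, that were higher (left) or lower (right) by 1 log2 unit or more in the final sample of each tumor, for the 53 mitosis genes, 51 other mitosis genes, 38 DNA replication genes and all 12255 tested genes. The 3 cell cycle lists pass 1 unit upward in 09I1 and downward in 29I1 and 43D1, and apart from Mis12 of the other mitosis genes, lower in 09I1, nowhere else.

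The genes past 1 unit were largely shared between these 3 tumors. Of the 53, 41 were lower by 1 unit or more in both 29I1 and 43D1, against 1.26% of all genes. For 38 of these 53 genes (71.7%), the change passed 1 unit upward in 09I1 and downward in both 29I1 and 43D1, against 0.922% of all genes. The combination of signs alone was found in 53 of 53 mitosis genes and in 22.5% of all genes. It follows from these signs that no mitosis gene had the same sign in all 5 tumors. Of all genes, 2.51% were lower and 3.33% higher in every tumor.

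Over the 5 tumors together, no mitosis gene passed the threshold of the paired comparison. The mean change was negative for 50 of the 53 genes and positive for Cks1b, Bub3 and Cenpa. Its median over the 53 was -0.43 log2 units, against 0.014 over all tested genes. In limma with the tumor as a block, 0 of the 53 genes and 0 of 23281 probe sets (0%) had an adjusted p under 0.05. At an unadjusted p under 0.05 the count was also 0 of 53, against 2.88% of all genes (1.1% lower and 1.78% higher). The smallest p among the 53 was 0.138, for Cenpf, with an adjusted p of 0.977 in limma. All 53 of the 95% confidence intervals of the mean change included 0, and for all 53 the final and basal ranges overlapped.

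The change varied more between tumors than it did for most genes on the array. The SD of the change between tumors had a median of 1.55 log2 units over the 53 genes and 0.406 over all genes. For 41 of the 53 it exceeded 1.17, the 95th percentile of all genes. The spread lay mainly in the final samples. Their SD was larger than that of the basal samples for 50 of the 53 genes, against 60.9% of all genes, with medians of 1.24 in the final and 0.714 in the basal group. Bub3, Kif2c and Espl1 were the exceptions. Without the 09I1 pair, an alternative chosen after seeing the data, the SD of the change had a median of 1.22 over the 53 genes and 0.276 over all genes, and 29 of the 53 exceeded the 95th percentile, then 1.098. The final SD was then larger than the basal one for 50 of the 53 genes, against 35.9% of all genes, with medians of 1.24 in the final and 0.482 in the basal group.

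The order of the arrays was similar for most of the 53 genes. Set against each gene's own mean over the 10 arrays, the median level of the 53 genes was at -2.11 in final 43D1, -0.89 in final 29I1, 0.43 in final 12I1, 0.50 in final 11D2 and 0.70 in final 09I1. On the basal arrays it was -0.82 in 09I1, 0.063 in 43D1, 0.18 in 12I1, 0.65 in 11D2 and 1.10 in 29I1. The basal samples thus differed as well. Basal 09I1 was the lowest of the 5 basal arrays for 51 of the 53 genes (27.1% of all genes), and basal 29I1 the highest for 49 (23.1% of all genes). Final 43D1 was the lowest of all 10 arrays for 48 of the 53, against 10.3% of all genes. The highest array was basal 29I1 for 33 genes and final 09I1 for 18. Among the 8 arrays without the 09I1 pair, final 43D1 was the lowest for 48 of the 53 genes (14.7% of all genes) and basal 29I1 the highest for 50 (17.7% of all genes).

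Leaving out the 09I1 pair changed the size of the mean change but not the call. The median over the 53 genes became -0.998 log2 units, with 52 of them negative, and 9 were lower at an unadjusted p under 0.05, against 3.45% of all genes. These were Plk1, Ttk, Cenpf, Spc25, Kif23, Hmmr, Espl1, Ncapd2 and Cdca2, with the smallest p, 0.0044, for Espl1. The smallest adjusted p of the 53 in limma was 0.466, so none of the 53 passed the threshold. Without 29I1 the median was -0.054, and without 43D1 it was -0.069. When arrays were weighted by how well they followed the fit, 4 of the 53, Cenpf, Kif23, Hmmr and Espl1, were lower at an unadjusted p under 0.05, against 4.54% of all genes.

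Below, levels are log2 values given in the order 09I1, 11D2, 12I1, 29I1 and 43D1 within each group. A level applies to 1 probe set and cannot be set against that of another gene. Cdk1, the kinase that drives entry into mitosis, stood at 10.01, 9.77, 9.63, 8.11 and 6.34 in the final samples, against 8.06, 9.996, 9.36, 10.11 and 9.15 in the basal samples. Ccnb1, a B-type cyclin that activates Cdk1, stood at 8.65, 8.88, 8.92, 6.94 and 5.81 in the final samples, against 7.17, 8.91, 8.37, 9.58 and 8.02 in the basal samples. Ccnb2, the other B-type cyclin measured, stood at 9.60, 9.39, 9.34, 7.62 and 6.19 in the final samples, against 7.83, 9.32, 8.76, 10.05 and 8.59 in the basal samples. In all 3 the final samples of 29I1 and 43D1 were far below their own basal samples, and final 09I1 was above its own. Ccna2, the cyclin that acts in S phase and early mitosis, had levels of 8.58, 8.02, 7.91, 6.43 and 5.20 in the final samples, against 6.51, 7.84, 7.81, 8.57 and 7.53 in the basal samples. Final 43D1 was its lowest sample and final 09I1 its highest. Cdk1 averaged 8.77 ± 1.55 in the final and 9.34 ± 0.82 in the basal samples (SD, n = 5 each). The mean change was -0.56 ± 0.64 log2 units (SE, n = 5) for Cdk1 and -0.57 ± 0.61 log2 units (SE, n = 5) for Ccnb1, with limma p of 0.41 for Cdk1 and 0.38 for Ccnb1.

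The small Cks proteins, which dock onto Cdk1 and help it reach its substrates, differed from each other. Cks2 had levels of 11.14, 10.15, 10.16, 8.75 and 7.24 in the final samples, against 8.501, 10.16, 9.72, 10.73 and 9.59 in the basal samples. It was the largest mover of the 6 genes in 09I1, higher by 2.63 log2 units. Cks1b had levels of 10.56, 9.68, 9.59, 9.23 and 8.88 in the final samples, against 9.22, 9.99, 9.44, 9.84 and 9.40 in the basal samples. It moved less, by 1.34 in 09I1 but -0.61 in 29I1 and -0.52 in 43D1, and its mean change of 0.011 ± 0.29 (SE, n = 5) was close to 0. Over all 6 genes of Cdk1, its cyclins and the Cks proteins, the median change was 1.86 in 09I1 but -2.07 in 29I1 and -2.34 in 43D1.

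Mitotic genes that move together often carry the same short elements just upstream of their start. These are the CHR, to which the MuvB complexes of dividing and resting cells bind, and the CCAAT box, bound by NF-Y. Both were searched on both strands in the RefSeq promoters of the GRCr8 assembly, from 250 bases before to 50 after the gene start. The CHR was searched as TTTGAA, which reads TTCAAA on the other strand, and in its second form as TTTAAA, which reads the same on either strand. The CCAAT box was searched by the letters of its name, which read ATTGG on the other strand. A match to the CHR can share at most 1 letter with a match to the CCAAT box. A promoter was held for 51 of the 60 listed genes. The CHR letters occurred in 43 of the 51 (84.3%), against 28.2% of 33469 promoters in the table. This comparison set was every promoter held, and was not limited to the tested genes. The CCAAT letters occurred in 39 (76.5%), against 37.5% of all promoters, and both in 33 (64.7%), against 11.3%. Among measured genes, 34 with a promoter were lower by 1 log2 unit or more in both 29I1 and 43D1, and 30 of them held the CHR letters. Of the other 11 measured genes with a promoter, 8 did. A match of letters is not a bound site.

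The 120 bases before the start are shown for 8 genes that were lower by 1 unit or more in both 29I1 and 43D1, and for Cks1b and Bub3, which moved less. Each is written 5′ to 3′ on the strand of its gene, with CHR and CCAAT letters in capitals.
Cdk1: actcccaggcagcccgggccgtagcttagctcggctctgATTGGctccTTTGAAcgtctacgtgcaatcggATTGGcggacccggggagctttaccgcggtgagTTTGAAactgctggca
Ccnb1: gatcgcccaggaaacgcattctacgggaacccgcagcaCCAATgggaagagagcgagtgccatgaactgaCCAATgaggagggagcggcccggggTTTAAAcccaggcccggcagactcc
Ccnb2: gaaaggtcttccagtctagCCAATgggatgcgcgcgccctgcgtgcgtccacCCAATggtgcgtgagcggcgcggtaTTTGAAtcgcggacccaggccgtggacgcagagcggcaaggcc
Cks2: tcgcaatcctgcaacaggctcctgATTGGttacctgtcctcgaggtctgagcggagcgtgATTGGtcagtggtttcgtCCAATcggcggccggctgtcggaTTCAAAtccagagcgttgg
Kif11: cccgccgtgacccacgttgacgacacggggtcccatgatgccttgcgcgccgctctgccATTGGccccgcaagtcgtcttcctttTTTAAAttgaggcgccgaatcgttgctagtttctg
Prc1: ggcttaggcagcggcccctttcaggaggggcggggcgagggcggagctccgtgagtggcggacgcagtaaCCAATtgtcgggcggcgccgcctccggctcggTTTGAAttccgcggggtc
Pttg1: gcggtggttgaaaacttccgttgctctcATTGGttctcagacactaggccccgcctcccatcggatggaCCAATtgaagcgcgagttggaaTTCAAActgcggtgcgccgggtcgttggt
Hmmr: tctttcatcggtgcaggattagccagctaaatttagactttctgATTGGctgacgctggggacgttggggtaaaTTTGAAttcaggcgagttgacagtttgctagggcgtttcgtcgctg
Cks1b: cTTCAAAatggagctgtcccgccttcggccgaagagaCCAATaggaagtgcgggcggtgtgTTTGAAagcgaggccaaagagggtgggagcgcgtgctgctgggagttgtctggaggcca
Bub3: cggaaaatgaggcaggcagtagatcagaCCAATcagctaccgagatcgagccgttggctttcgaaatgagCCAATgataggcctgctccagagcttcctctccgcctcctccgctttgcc
Cdk1 lies on the plus strand at chr20:19265173-19265292, Kif11 at chr1:244536747-244536866, Prc1 at chr1:143659361-143659480 and Bub3 at chr1:195760412-195760531. The others lie on the minus strand, Ccnb1 at chr2:33655226-33655345, Ccnb2 at chr8:79981659-79981778, Cks2 at chr17:13727520-13727639 and Cks1b at chr2:177135334-177135453. On the same strand, Pttg1 lies at chr10:28406327-28406446 and Hmmr at chr10:25665216-25665335. In the first 8 stretches the CHR nearest the start begins 16 to 46 bases before the start, and the CCAAT box nearest the start begins 42 to 76 bases before it. In Cks1b the nearer CHR begins 59 bases before the start and its CCAAT box 83 bases before it. The Bub3 stretch has 2 CCAAT boxes and no CHR letters. The genes shown are a selection. Of the 34 measured genes lower by 1 unit or more in both 29I1 and 43D1, 30 held CHR letters in the searched promoter. Of the other 11, 8 did. Among the 34, Melk held neither element. Cdca3, Cenpk and Cenpn held no CHR letters, and Bub1, Bub1b, Kif15, Mad2l1, Nuf2 and Plk4 no CCAAT letters. Smc4, Smc2, Cenpa and Kif2c, among the other 11, held CHR letters. Whether the letters go with the change was not tested.

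Mki67, which encodes the proliferation antigen Ki-67, stood at 9.52, 9.13, 9.22, 7.79 and 6.06 in the final samples, against 8.29, 9.33, 8.97, 9.79 and 8.75 in the basal samples. Foxm1, a transcription factor of mitotic genes, stood at 7.74, 6.71, 6.71, 5.91 and 5.52 in the final samples, against 6.26, 7.004, 6.51, 7.36 and 6.79 in the basal samples. Both were lowest in final 43D1. Mki67 was highest in basal 29I1, but Foxm1 in final 09I1. By tumor the change in Mki67 was 1.23 for 09I1, -0.20 for 11D2, 0.25 for 12I1, -2.0 for 29I1 and -2.69 for 43D1, a mean of -0.68 ± 0.56 log2 units (SE, n = 5) with limma p of 0.26. Foxm1 covered a narrower range, with 1.48 in 09I1 but -1.45 in 29I1 and -1.28 in 43D1.

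**Figure D3:**
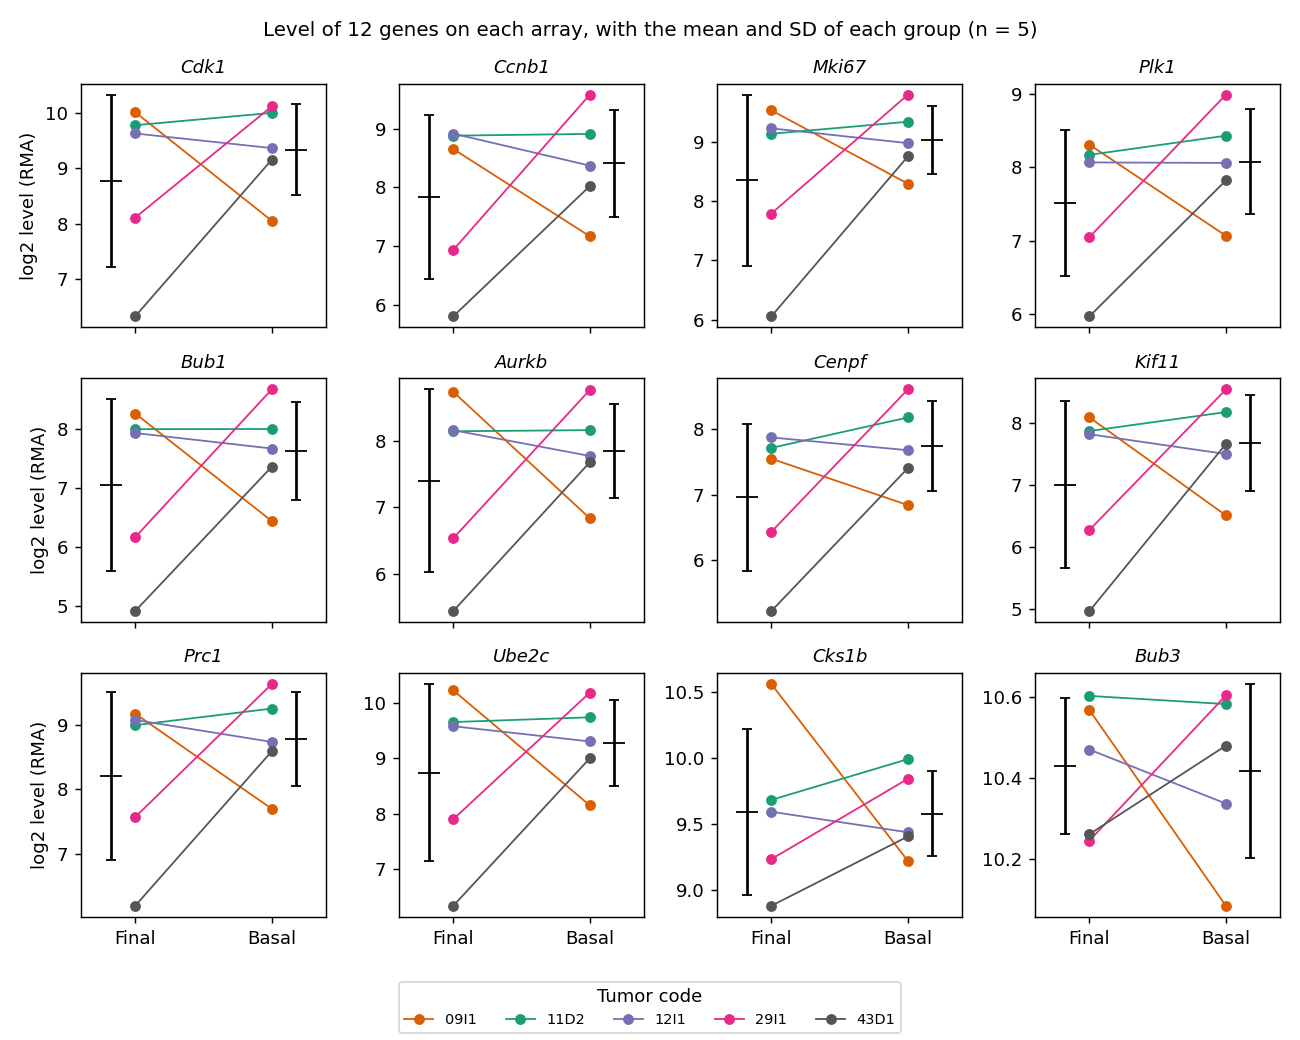
Log2 level of 12 genes on each array, final left and basal right, with a line joining the 2 samples of a tumor and black bars for the mean and SD of each group (n = 5). In the 10 panels from Cdk1 to Ube2c the lines of 29I1 and 43D1 climb toward the basal sample and that of 09I1 descends; the Bub3 panel spans only 0.52 log2 units.

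The 5 mitotic kinases measured besides Aurkb, Cdk1 and the checkpoint kinases had a median change of 2.15 in 09I1 but -2.06 in 29I1 and -2.22 in 43D1. Plk1, which acts at centrosomes, kinetochores and the midzone, had levels of 8.31, 8.17, 8.07, 7.05 and 5.97 in the final samples, against 7.07, 8.43, 8.06, 8.99 and 7.82 in the basal samples. Plk4, which starts centriole duplication, had levels of 7.999, 7.49, 7.35, 5.91 and 4.85 in the final samples, against 5.82, 7.74, 6.98, 8.04 and 7.07 in the basal samples. Aurka, the centrosome and spindle pole kinase, had levels of 8.54, 7.73, 7.90, 6.59 and 6.45 in the final samples, against 6.60, 8.003, 7.64, 8.47 and 7.40 in the basal samples. The final and basal values of the 3 genes interleave, with 09I1 running opposite to 29I1 and 43D1. Aurka was the kinase with the smallest difference in 43D1, -0.95 against -1.85 for Plk1 and -2.22 for Plk4. Melk and Pbk are kinases that are abundant in proliferating tissue. Melk differed by -2.34 in 29I1 and -2.61 in 43D1, and Pbk by -2.06 in 29I1 and -2.79 in 43D1. Pbk was higher by 2.93 in 09I1, the second largest difference of the 53 genes there.

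Of the role groups, the 5 spindle checkpoint genes had the lowest median change in 29I1, at -2.38. Their median was -2.44 in 43D1 and 1.82 in 09I1. Bub1, a checkpoint kinase at kinetochores, stood at 8.27, 8.005, 7.94, 6.17 and 4.92 in the final samples, against 6.45, 8.01, 7.68, 8.68 and 7.37 in the basal samples. Bub1b, which encodes the checkpoint protein BubR1, stood at 7.57, 7.29, 7.27, 5.37 and 4.49 in the final samples, against 5.42, 7.60, 6.94, 7.99 and 6.93 in the basal samples. Ttk, the Mps1 kinase that starts checkpoint signalling, stood at 8.28, 7.57, 7.24, 5.81 and 4.28 in the final samples, against 5.98, 7.87, 7.23, 8.19 and 7.05 in the basal samples. These 3 differed by -2.76 to -2.38 log2 units in 29I1 and 43D1, and by at most 0.33 in size in 11D2 and 12I1. Mad2l1, the checkpoint protein that binds Cdc20, stood at 7.51, 7.76, 7.67, 6.43 and 5.98 in the final samples, against 6.38, 7.48, 7.58, 8.29 and 7.37 in the basal samples. Its differences were smaller, -1.86 in 29I1 and -1.40 in 43D1.

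Bub3, the partner through which Bub1 and BubR1 reach the kinetochore, was nearly flat at 10.57, 10.60, 10.47, 10.25 and 10.26 in the final samples, against 10.08, 10.58, 10.34, 10.60 and 10.48 in the basal samples. Its final samples spanned 0.36 log2 units and its basal ones 0.52. These levels are of its brightest probe set. There its change had the sign of the median of the 53 genes in all tumors but 11D2, and a size of at most 0.48. The other tested probe set of Bub3 was dimmer and less flat. It read higher for 09I1 (0.88) and 12I1 (0.51). Lower readings came from 43D1 (-0.063), 11D2 (-0.14) and 29I1 (-0.37), so every sign was that of the median. On the brightest probe set the mean change was 0.012 ± 0.15 (SE, n = 5, limma p of 0.94), with a 95% interval of -0.34 to 0.37.

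The chromosomal passenger complex couples the Aurora B kinase to the scaffold Incenp and the targeting subunits survivin (Birc5) and borealin (Cdca8). Aurkb stood at 8.73, 8.14, 8.16, 6.53 and 5.44 in the final samples, against 6.83, 8.16, 7.77, 8.76 and 7.68 in the basal samples. Birc5 stood at 6.87, 7.12, 7.05, 5.80 and 5.48 in the final samples, against 5.99, 7.03, 6.80, 7.71 and 6.31 in the basal samples. Final 29I1 and final 43D1 were the lowest of the 5 final samples for both genes. Over the 4 genes the median change was 1.14 in 09I1 but -1.90 in 29I1 and -1.82 in 43D1. The catalytic subunit moved most in 09I1, by 1.90 for Aurkb against 0.88 for Birc5, 1.39 for Cdca8 and 0.71 for Incenp.

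Among the 7 kinetochore and centromere genes, the median change was 1.46 in 09I1 but -1.90 in 29I1 and -1.89 in 43D1. Cenpf, a large protein of the outer kinetochore in mitosis, stood at 7.55, 7.72, 7.88, 6.44 and 5.23 in the final samples, against 6.84, 8.18, 7.68, 8.61 and 7.41 in the basal samples. It had the most negative mean change of the 53 genes, -0.78 ± 0.47 log2 units (SE, n = 5), with limma p of 0.138. Nuf2 and Spc25, subunits of the Ndc80 complex that grips spindle microtubules, were both lower in these tumors. Nuf2 differed by -2.01 in 29I1 and -1.89 in 43D1, and Spc25 by -2.25 in 29I1 and -2.51 in 43D1. Spc25 was higher by 2.72 in 09I1, against 1.46 for Nuf2. Cenpk, of the inner kinetochore, was higher by 3.25 in 09I1, more than any other of the 53 genes. Cenpn, another inner kinetochore gene, was higher there by 2.44. Cenpe, the kinetochore motor, differed by 1.09 in 09I1 but by -1.88 in 29I1 and -1.15 in 43D1.

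Cenpa, the histone H3 variant that marks centromeres, stood at 4.67, 4.11, 4.06, 4.12 and 3.99 in the final samples, against 4.16, 4.04, 3.91, 4.15 and 4.15 in the basal samples. Its probe set was dim, with a mean of 4.13 log2 units over the 10 arrays against 4.11 at the floor of the filter. Its final 09I1 value of 4.67 was the highest of the 10.

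The 8 kinesins had a median change of 1.43 in 09I1 but -2.04 in 29I1 and -2.29 in 43D1. Kif11, which pushes spindle poles apart, stood at 8.09, 7.87, 7.82, 6.28 and 4.97 in the final samples, against 6.51, 8.18, 7.50, 8.54 and 7.67 in the basal samples. Kif20a, a midzone kinesin needed for cytokinesis, stood at 8.18, 8.13, 8.19, 6.58 and 5.08 in the final samples, against 6.43, 8.27, 7.67, 8.71 and 7.57 in the basal samples. Kif23, the kinesin of the centralspindlin complex, stood at 8.15, 8.12, 8.18, 6.94 and 5.54 in the final samples, against 7.02, 8.49, 8.32, 8.90 and 7.64 in the basal samples. All 3 were lowest in final 43D1 and highest in basal 29I1. Kif20b and Kif22, motors of the midzone and of chromosome arms, had differences of similar size. Kif20b differed by -2.20 in 29I1 and -2.90 in 43D1, and Kif22 by -2.48 in 29I1 and -2.49 in 43D1. Kif15, which supports the same function as Kif11, differed by -1.52 in 29I1 and -1.42 in 43D1.

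Kif2c and Kif18a, kinesins that shorten microtubules or limit their growth, differed less between the samples. Kif2c, which depolymerises microtubules at centromeres, stood at 8.82, 8.17, 8.35, 7.62 and 7.82 in the final samples, against 8.21, 8.02, 7.63, 8.19 and 9.18 in the basal samples. Its highest sample was basal 43D1, and its lowest was final 29I1, an order shared by no other of the 53 genes. Kif18a differed by -0.78 in 29I1, by -0.75 in 43D1 and by 0.83 in 09I1. The mean change was -0.089 ± 0.32 log2 units (SE, n = 5) for Kif2c, with limma p of 0.79.

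Prc1, which bundles the midzone microtubules, stood at 9.18, 8.997, 9.08, 7.57 and 6.19 in the final samples, against 7.70, 9.25, 8.74, 9.63 and 8.59 in the basal samples. Hmmr, a spindle pole protein, stood at 6.92, 7.15, 7.09, 6.17 and 4.74 in the final samples, against 5.85, 7.62, 6.99, 7.87 and 6.54 in the basal samples. Racgap1, the partner of Kif23 in centralspindlin, stood at 8.75, 8.99, 8.99, 7.66 and 6.12 in the final samples, against 7.82, 9.30, 8.49, 9.55 and 8.58 in the basal samples. Each of the 3 had its lowest value in final 43D1 and its highest in basal 29I1. Hmmr was among the 3 genes with the smallest p in the paired fit, with Cenpf and Kif23, at a mean change of -0.56 ± 0.43 log2 units (SE, n = 5) and limma p of 0.23. Ect2, the exchange factor that Racgap1 recruits to start furrowing, differed by -2.12 in 29I1, by -2.87 in 43D1 and by 1.73 in 09I1. Of the other spindle genes, Nusap1 differed by 1.99 in 09I1 but -1.89 in 29I1 and -2.28 in 43D1. Dlgap5 differed by 0.78, -1.06 and -1.38 in the same tumors, and Troap by 1.44, -1.65 and -0.92.

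The genes of anaphase onset and ubiquitin transfer had medians of 2.07 in 09I1 but -2.12 in 29I1 and -1.997 in 43D1. Cdc20, the activator of the anaphase-promoting complex, stood at 8.17, 8.34, 8.07, 7.08 and 6.44 in the final samples, against 7.13, 8.41, 7.88, 8.57 and 7.85 in the basal samples. Ube2c, the ubiquitin-conjugating enzyme of that complex, stood at 10.23, 9.65, 9.58, 7.90 and 6.33 in the final samples, against 8.15, 9.74, 9.30, 10.18 and 8.998 in the basal samples. Pttg1, the separase inhibitor securin, stood at 9.69, 9.62, 9.47, 7.95 and 6.75 in the final samples, against 8.13, 9.59, 9.22, 10.24 and 8.75 in the basal samples. In all 3, final 43D1 was lowest and final 29I1 next among the final samples. Cdca3, an adaptor for degradation of Wee1, differed by 2.29 in 09I1 but by -2.12 in 29I1 and -2.04 in 43D1.

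Espl1, the protease separase that cuts cohesin, followed another order across the tumors. It stood at 7.79, 7.48, 6.89, 6.60 and 6.71 in the final samples, against 5.72, 8.35, 7.64, 8.66 and 7.45 in the basal samples. It differed by -0.87 in 11D2, where the median of the 53 genes was -0.14, and by -0.76 in 12I1, where that median was 0.23. It was the only one of the 53 that ran against the sign of the median by 0.5 log2 units or more in any tumor. It was lower in the final sample of 4 of the 5 tumors, with a mean change of -0.47 ± 0.53 log2 units (SE, n = 5) and limma p of 0.40.

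The 4 condensin and mitotic chromatin genes had the smallest median changes of the role groups in these 3 tumors, 1.01 in 09I1 but -1.11 in 29I1 and -1.23 in 43D1. Smc4, a core ATPase of condensin, stood at 6.21, 6.09, 6.18, 5.74 and 6.003 in the final samples, against 6.02, 6.15, 6.26, 6.29 and 6.23 in the basal samples. Its range over the 10 arrays was 0.55 log2 units. Smc2, the other core ATPase, differed by 0.47 in 09I1 but -0.66 in 29I1 and -1.06 in 43D1. Ncapd2, a regulatory subunit of condensin I, differed by 1.80, -1.56 and -1.63 in the same tumors, and the phosphatase-targeting gene Cdca2 by 1.56, -2.01 and -1.41. The shared ATPases of condensin thus covered a narrower range than the regulatory subunit measured beside them. Bub3, Smc4 and Cenpa had the smallest ranges of the 53 genes over the 10 arrays.

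For 16 of the 53 genes, 19 further probe sets with the same single symbol were tested. In 29I1 and 43D1, 19 of 19 had the same sign as the brightest probe set of their gene. In 09I1, 14 of 19 had the same sign and 5 the opposite one. There Kif11 read 1.58 on its brightest probe set and -0.20 on the other, Kif23 1.13 and -0.01, and Kif2c 0.61 and -0.10. Incenp read 0.71, -0.34 and -0.06 on its 3 probe sets. The median of the other minus the brightest probe set was -0.50 for 09I1 and between 0.086 and 0.43 for the other tumors. The final 09I1 array is also the one with the 3′ excess of the control transcripts given above, and the part of that excess in these differences was not tested.

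**Figure D4:**
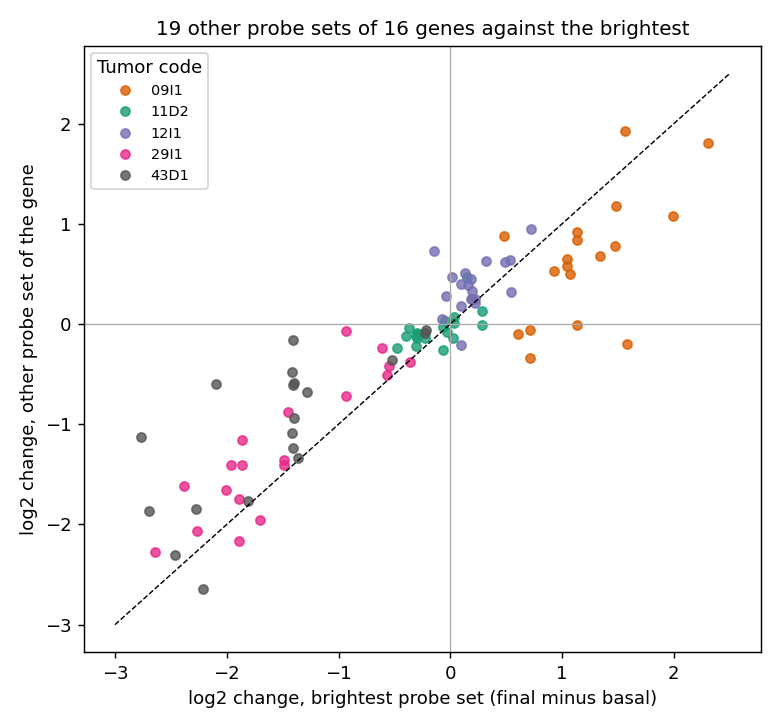
Final minus basal log2 change on each of 19 further probe sets (vertical axis) against the change on the brightest probe set of the same gene (horizontal axis), coloured by tumor; the dashed line marks equal values. Points of 29I1 and 43D1 lie below 0 on both axes, and 5 of the 09I1 points lie below 0 on the vertical axis.

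Other mitosis genes, from a list of 65 of which 51 were tested, had medians of the same sign in each tumor, closer to 0 in 09I1, 29I1 and 43D1. Their median change was 1.21 for 09I1, -0.15 for 11D2, 0.21 for 12I1, -1.38 for 29I1 and -0.87 for 43D1. In the paired fit 0 of the 51 passed an adjusted p of 0.05, and 2 were lower at an unadjusted p under 0.05, against 1.1% of all genes. These 2 were Kif2a, a microtubule-depolymerising kinesin, at -0.38 ± 0.15 (SE, n = 5; limma p of 0.040), and Haus6, of the augmin complex, at -0.56 ± 0.23 (p of 0.044), both with an adjusted p of 0.977. Unlike the 53 genes, both were lower in 09I1 too, with -0.41 for Kif2a and -0.70 for Haus6. The next smallest p among the lower genes was that of Kif14, a cytokinesis kinesin, at -0.41 ± 0.23 with p of 0.12. Among the higher ones Spdl1, which recruits dynein to kinetochores, had 0.32 ± 0.15 with p of 0.068 and was higher in all 5 tumors. Ncaph2, of condensin II, at 0.11 ± 0.18, and Mad1l1, the checkpoint partner of Mad2, at 0.088 ± 0.15, were not past an unadjusted p of 0.05 in limma (0.55 for Ncaph2, 0.58 for Mad1l1).

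DNA replication genes, 38 tested of 42 listed, had medians of 1.57 for 09I1, -0.14 for 11D2, 0.16 for 12I1, -1.22 for 29I1 and -0.98 for 43D1. By 1 log2 unit or more, 33 of the 38 were higher in 09I1, against 12.2% of all genes. By as much, 24 were lower in 29I1 and 18 in 43D1, against 5.83% of all genes in 29I1 and 2.93% in 43D1. In the paired fit 0 of the 38 passed an adjusted or unadjusted p of 0.05. Mcm6, a subunit of the replicative helicase, differed by 1.56 in 09I1 but -1.56 in 29I1 and -1.53 in 43D1. Pcna, the sliding clamp, differed by 1.20, -0.83 and -0.80 in the same tumors. The tumors with lower and with higher replication genes were those of the mitosis genes.

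Markers of other cell types moved as well, in patterns of their own. In 29I1, where the mitosis genes were lower, the median change was -1.38 for 12 fibroblast markers, -1.37 for 12 macrophage markers, -1.48 for 8 adipocyte markers, -0.74 for 11 T and NK cell markers and -0.67 for 8 endothelial markers (8 of 8 lower). The 9 myoepithelial and smooth muscle markers ran the other way in 29I1, with a median of 1.08 and 8 of 9 genes higher. In 43D1, where they were lower too, macrophage markers were higher by a median of 1.03 (12 of 12 genes), T and NK cell markers by 1.12 (11 of 11) and adipocyte markers by 0.88 (6 of 8), while fibroblast markers stood at -0.34 and myoepithelial and smooth muscle markers at -1.03 (8 of 9 lower). In 09I1, where the mitosis genes were higher, T and NK cell markers were higher by 0.88 (11 of 11), adipocyte markers by 0.95 (7 of 8), and luminal markers were at -0.40 (9 of 12 lower) and myoepithelial ones at -0.69 (7 of 9 lower). Luminal markers were higher by 0.29 in 29I1 and 0.26 in 43D1, with 10 of 12 genes higher in each. In 11D2, 12 of 12 skeletal muscle markers were higher by a median of 4.19, with mean levels of 9.05 in its final sample and 4.55 in its basal sample. In the same tumor adipocyte markers were higher by 2.02 (8 of 8), T and NK cell markers by 1.16 (11 of 11), fibroblast markers by 0.99 (12 of 12) and macrophage markers by 0.81 (11 of 12). In 12I1 the median was -2.27 for 7 erythroid markers (7 of 7 lower), -0.80 for 4 B cell markers and -0.76 for macrophage markers. Erythroid markers were also lower in 11D2, at -1.11 (7 of 7), and stood at 0.065 in 29I1 and 0.12 in 43D1. Over the 5 tumors, the mean level of the T and NK cell list ranged from 6.67 to 7.66 on the final and 5.46 to 8.17 on the basal arrays. That of the macrophage list was 9.20 to 10.01 on the final and 8.62 to 10.60 on the basal arrays. That of the myoepithelial and smooth muscle list was 10.03 to 10.83 on the final and 9.92 to 11.25 on the basal arrays. That of the fibroblast list was 9.25 to 10.69 on the final and 9.55 to 10.61 on the basal arrays. The part of these cells in the mitosis values was not tested.

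**Figure D5:**
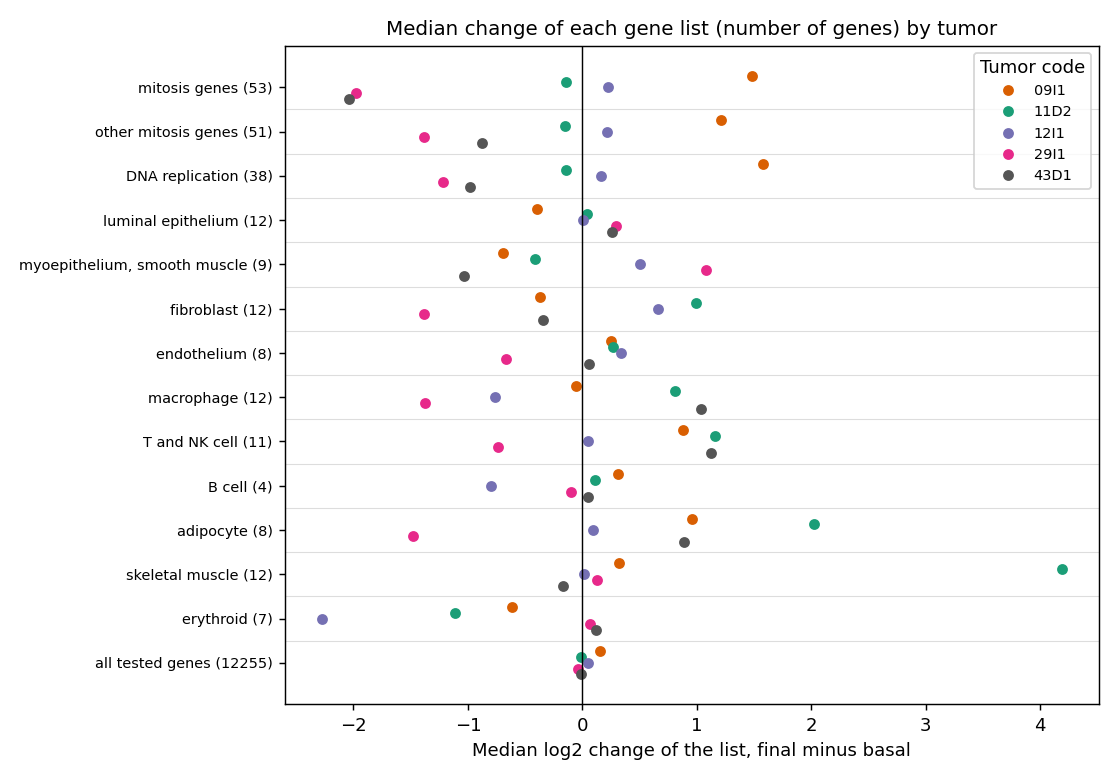
Median final minus basal log2 change of each gene list (number of tested genes in brackets) in each of the 5 tumors, shown as coloured points. In the 3 cell cycle lists at the top, 09I1 lies at 1.21 to 1.57 and 29I1 and 43D1 lie between -2.04 and -0.87; the cell type lists are arranged otherwise.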

How the data were processed

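The data were 1 table of 10 arrays. Intensities had been normalized by the authors with robust multichip averaging, per the labels' protocols, then filtered and tested as pairs in GeneSpring GX 7.3. Values in the deposited table are log2 and include 57 control probe sets, so the filter was not applied to it. A genome build is not given in the sources used here.

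Probe sets of controls, and the 25% with the lowest mean among the rest (floor 4.11), were left out. Final minus basal was fitted on 23281 probe sets with limma 3.58.1 in R 4.3.3, tumor code as a block and a trend in the variance, with Benjamini-Hochberg adjustment over all of them and a threshold of 0.05. The platform annotation gave 1 symbol to 20832 of 31099 probe sets and several to 436. The design text states the pairing. As a check, deviations of both samples of a tumor from their group means correlated at -0.15 (29I1) to 0.22 (43D1). The final sample was closest to the basal sample of its own tumor in 09I1 and 43D1, but not in 11D2, 12I1 or 29I1. The pairing therefore rests on the design text.

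The members, gene lists, tests and alternatives were chosen with earlier results of these data known. Genes given by array were a fixed list of 32, of which Ndc80, Tpx2 and Anln were not measured, plus the 3 with the smallest p in each direction and any gene against the sign of the median by 0.5 or more in a tumor. From the other mitosis genes, the 3 with the smallest p in each direction were named. The fit was tested on simulated data. The number of arrays limits the precision.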

Additional observations from a re-analysis of the deposited data

Results flagged for a closer look

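Among 108 sets of 5 values (levels or changes of the genes given by array, and median changes of their role groups), 1 held a sample far from the other 4. Cenpa stood at 4.67 log2 units in the final sample of 09I1, against 3.99 to 4.12 in the other final samples and 3.91 to 4.16 in the basal ones. Chance flags about 1 in 20 sets, or 5.4 of 108. The array is the one with the 3′ excess of control transcripts, and the part of that excess in the value was not tested.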

How the results depend on the processing

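The fit was repeated without the tumor block (the pairing), with no filter, with the lowest 50% left out, after cyclic loess or median centring, with array weights, without the variance trend, with the mean over probe sets, with the methods' t-test and without each tumor. No probe set passed an adjusted p of 0.05 under any of these (probe sets were not counted where genes were averaged). Without the replicate block the count of mitosis genes at an unadjusted p under 0.05 was 0 and their median change -0.43, as with it. That count was 4 with array weights and between 0 and 9 when a tumor was left out, the 9 being without 09I1, when the median change ranged from -0.998 to -0.054. With a 1.5-fold limit in place of 1 log2 unit, 1 gene, Espl1, was lower in 11D2 and in 12I1. The direction was kept in 424 of 447 alternatives of 32 named genes and reversed in 23, and the cause was not tested. In this paired design the mean change of a probe set is the same without the block, filter or variance trend and with the t-test. It is also fixed with the lowest 50% left out, and with the mean over probe sets for genes with a single tested probe set. The 424 thus include alternatives that could not reverse. With array weights Cks1b became -0.27 and Bub3 -0.050. When a tumor was left out, the mean changes ranged from -0.32 to 0.17 for Cks1b, -0.11 to 0.10 for Bub3, -0.71 to 0.025 for Foxm1, -1.05 to 0.0048 for Ccnb2, -1.05 to 0.052 for Ccna2 and -0.98 to 0.27 for Cks2. They ranged from -1.06 to 0.042 for Plk4, -0.71 to 0.24 for Aurka, -0.72 to 0.029 for Mad2l1, -1.02 to 0.010 for Aurkb, -0.60 to 0.098 for Birc5, -0.29 to 0.23 for Kif2c and -1.06 to 0.00071 for Kif20a. Over all probe sets, 935 had an unadjusted p under 0.05, against 1868 without 09I1, 608 without 11D2, 2440 with array weights, 465 with the lowest 50% left out and 1081 with the methods' t-test. Of the 935 probe sets, 42.7% were higher. With the mean over probe sets the units were 12255 genes, and 60.1% of the 361 with an unadjusted p under 0.05 were higher. These shares differ in unit. In the main fit, counted by gene, 218 of 353 were higher. The median change in 09I1 was 0.15 for all genes and 1.48 for the mitosis genes. After median centring it was 0.23 for all genes and 1.56 for the mitosis genes.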

Other observations

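Of the 113 tested genes that were higher by 1 log2 unit or more in 09I1 and lower by as much in both 29I1 and 43D1, 38 were the mitosis genes described above (33.6%), 19 other mitosis genes and 14 DNA replication genes. The other 42 were in none of the lists. A part of them act in the cell cycle or in repair of replicating DNA, and are named here after their values were seen. Top2a, the topoisomerase that adriamycin acts on, differed by 1.14 in 09I1 but -1.63 in 29I1 and -2.82 in 43D1. Chek1, the kinase of the replication checkpoint, differed by 1.99, -1.44 and -2.47 in the same tumors. E2f8, a repressor of E2F targets, differed by 2.74, -2.03 and -1.62. Fancd2, of the Fanconi repair pathway, differed by 1.76, -1.59 and -1.67. In 11D2 and 12I1 these 4 genes differed by at most 0.37 in size, like most mitosis genes.

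Not all of the 42 are known for a role in division. Cd52, a surface protein of lymphocytes, differed by 1.83 in 09I1 but -2.10 in 29I1 and -1.84 in 43D1, but also by -1.47 in 12I1. Fosb, an immediate early transcription factor, had the largest difference of the 113 genes in 09I1, 4.67, with -1.94 in 29I1 and -1.83 in 43D1. Ces1d, a carboxylesterase, differed by 3.05 in 11D2, where no mitosis gene passed 1 unit.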
